A study of Homo sapiens with 8 samples.

Results

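WM115 is an established human melanoma line that grows attached to the dish. Its cells were sorted by flow cytometry with AC133, an antibody against an epitope of CD133, and the transcripts of AC133 high and AC133 negative cells were compared. The series holds 8 arrays of 4 groups, and 4 of the arrays are of WM115: 2 AC133 high and 2 AC133 negative, 1 of each from sort 1 and from sort 2. The detection p-value ranks a probe against the negative controls of its array. A probe was a member where both high arrays, both negative arrays or all 4 gave it a detection p-value under 0.05. This gave 12412 members out of 13844 probes tested in the whole series and 22184 probes listed, for 10135 named genes and 1117 probes without a gene symbol.

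Per the labels, WM115 was grown in RPMI medium with 10% serum, lifted with trypsin and EDTA and stained with AC133 coupled to phycoerythrin. The high cells were the 10% with the brightest stain and the negative cells those without it, so cells of intermediate stain are in neither group. Scatter and propidium iodide gates left out doublets and dead cells. No reporter or other engineered allele is named for WM115, unlike the series' colon carcinoma line Caco2, whose clones carry a fluorescent reporter driven by the mouse Melk promoter. The labels call the sorts biological duplicates and do not say whether they came from separate cultures, so the spread behind each p-value is that of these samples and may be technical. All 8 arrays share a slide. The title of the study concerns how the epitope varies with the cell cycle.

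CD133, encoded by PROM1, is a membrane protein with several membrane passes that sits in protrusions of the cell surface and binds cholesterol. AC133 recognises a form of it whose exposure can differ between cells. It has been used to sort candidate tumour-initiating cells, in melanoma among other tumours. Melanoma cells are also known to move between a pigmented state, with MITF and its target genes, and a dedifferentiated state with inflammatory and matrix genes.

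Levels are normalized log2 signals, so a difference of 1 is 2-fold, and all differences are AC133 high minus negative. On the 4 WM115 arrays 55.5% to 59.2% of the probes were detected, the median signal was 53.4 to 58.8 intensity units, and each value averaged a median of 41 beads with a standard error over beads of 4.32% to 4.51%. Of the members, 11416 were detected on all 4 arrays, 92 on both high arrays and no negative array, and 116 on both negative arrays and no high array. The largest detection p-value inside the rule was 0.0494, shared by 27 probes, and the smallest outside was 0.0508, shared by 16. Melanocyte genes marked the line: 27 of the 29 on the array were detected, among them the lineage factors SOX10 at 10.00 to 10.63 and MITF at 9.99 to 10.75, and the melanosome protein PMEL at 13.11 to 13.81. KIT, a receptor of melanocyte precursors, and the transporter ABCB5 were not detected by the rule.

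PROM1 checked the sort. Its level was 9.60 on the high array of sort 1, 9.54 on the high array of sort 2, 5.72 on the negative array of sort 1 and 6.22 on that of sort 2. The high arrays lie far above the negative arrays in both sorts, and the groups do not overlap. The within-sort differences were 3.87 and 3.32, and the mean difference of 3.60 (SE 0.21, n = 2 per group) had a limma adjusted p of 0.000691. As the gene of the sorted protein it describes the gate. MELK, a mitotic kinase gene, stood at 8.86 and 9.13 in the high cells and at 8.91 and 8.76 in the negative cells, so its groups overlap, and its difference was 0.17 (limma adjusted p = 1).

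CD36 was the other gene past the threshold. It encodes a surface receptor that takes up fatty acids and binds thrombospondin. Its better detected probe read 4.81 and 4.83 in the high cells of sorts 1 and 2, and 7.67 and 7.97 in the negative cells. Its second probe read 4.55 and 5.22 in the high cells and 8.54 and 9.09 in the negative cells. On both probes the high arrays sit near the lower end of the scale, on both the negative arrays are well up in it, and the groups are separated in each sort. CD36 fell 8.00-fold on the first probe (log2 difference -3.00, SE 0.16, limma adjusted p = 0.00055). On the second, which 1 of the 2 high arrays detected, it fell 15.2-fold (-3.93, SE 0.26, limma adjusted p = 0.00096). The lowest signals detected on the high arrays were 4.70 in sort 1 and 4.78 in sort 2, so background limits the size on both probes. The sorts gave nearly the same size, -2.85 and -3.14 for the first probe and -3.98 and -3.87 for the second. RNA of sorted bulk cells cannot tell fewer CD36-positive cells from less CD36 RNA per cell. These 3 probes were 0.0217% of the 13844 tested, 1 higher (0.00722%) and 2 lower (0.0144%), while 4.64% had an unadjusted p under 0.05. With the 4 WM115 arrays fitted alone, without the spread shared with Caco2, no probe passed and 426 had an unadjusted limma p under 0.05, and the adjusted p was 0.114 for PROM1 and 0.114 and 0.299 for the CD36 probes. Without a filter on dim probes the second CD36 probe missed the threshold, with an adjusted p of 0.0553. PROM1 passed under 12 of 13 alternatives (limma adjusted p 0.000187 to 0.114), the first CD36 probe under 12 of 13 (0.000213 to 0.114) and the second under 10 of 12 (0.000388 to 0.299).

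CD36 is also made by platelets, endothelium, macrophages and fat cells, so their markers were read on the same arrays. Of 19 endothelial, platelet and erythroid markers on the array 8 were detected, and the log2 of their summed signal was 9.0 to 9.42 in the high cells and 8.81 to 9.52 in the negative cells. CDH5, KDR, PF4, GP9 and HBB were detected on 0 of the 4 arrays, TEK and TIE1 on 1 and PECAM1 on 2. Of the 8, 1 was higher and 2 lower in both sorts (26.4% and 22.4% among all member genes). FLT1 differed by 0.17 and 0.08, the platelet gene ITGA2B by -0.39 and -0.39 without overlap of the groups, and HBG1 by -0.16 and -0.60. ITGA2B and HBG1 were each detected on 1 of the 2 high arrays. VWF, PPBP, HBA1, EGFL7 and GP1BB differed in opposite directions in the sorts. Of 21 leukocyte markers 6 were detected, with a summed level of 11.78 to 12.09 in the high cells and 11.01 to 11.87 in the negative cells, and CD14, CD3E and TYROBP were detected on 0 of the 4 arrays, PTPRC and CSF1R on 1, and CD163, ITGAM and SPI1 on 2. Of the 6 detected leukocyte markers 2 were higher and 2 lower in both sorts. CD68, a macrophage marker detected on all 4 arrays, differed by -0.28 and -0.22, and LYZ by -0.04 and -0.01. FCER1G differed the other way by 0.40 and 1.13, without overlap of the groups, and LCP2 by 0.05 and 0.58. The part of other cells in the CD36 result was not tested beyond these values.

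Of 34 genes of fatty acid uptake and storage on the array 23 were detected, 4 higher and 9 lower in both sorts (26.4% and 22.4% among all member genes). Their median was -0.04 against 0.02 over all member genes, and CD36 was the 1 that passed. LPL, lipoprotein lipase, which frees fatty acids from lipoproteins at the cell surface, read 5.27 and 5.18 in the high cells and 6.71 and 6.29 in the negative cells. It had the next smallest p after CD36, without overlap of the groups and with differences of -1.44 and -1.12 in the sorts, but did not pass (limma adjusted p = 0.147). The fatty acid transport gene SLC27A3 differed in the other direction, by 0.31 and 1.05. CAV1, the caveolar coat protein, differed by -0.29 and -1.43.

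**Figure D1:**
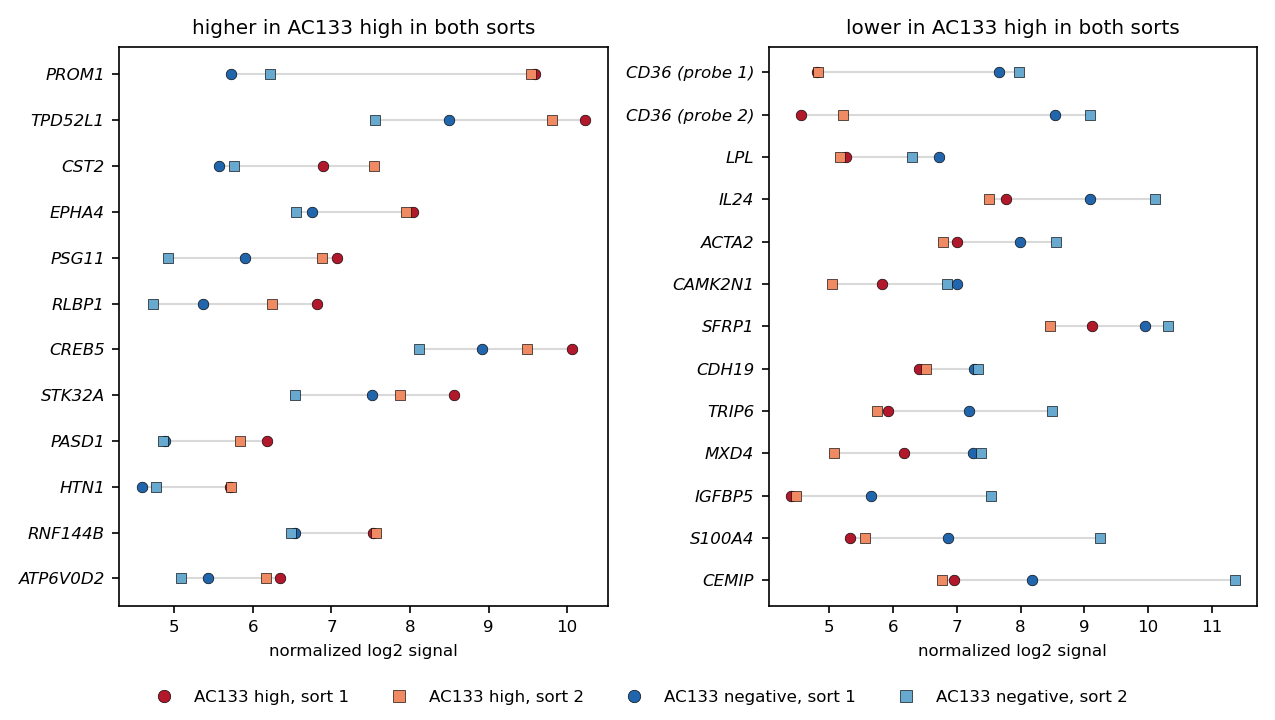
Normalized log2 signal (horizontal axis) on each of the 4 WM115 arrays for genes whose high arrays were above (left) or below (right) the negative array of the same sort in both sorts. Red and orange marks are AC133 high, blue and light blue marks AC133 negative, circles sort 1 and squares sort 2, and a grey line spans the 4 arrays of a probe. PROM1 and both CD36 probes show the widest gap between colours, and the sort 2 negative array lies far to the right for S100A4 and CEMIP.

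No other gene passed, and the next genes are given as values. With 2 arrays against 2, an exact permutation test of a single gene cannot go below a two-sided p of 0.333. On the higher side, over 2-fold in each sort, were 16 probes, 0.129% of the members, PROM1 included. TPD52L1, a coiled-coil protein of a family linked to vesicle traffic, read 10.24 and 9.81 in the high cells and 8.49 and 7.55 in the negative cells. Its difference of 2.00 (SE 0.32, limma adjusted p = 0.206) was 1.74 in sort 1 and 2.26 in sort 2, and it was the largest after PROM1 among the members. CST2, a secreted inhibitor of cysteine proteases, read 6.89 and 7.55 against 5.57 and 5.76, with differences of 1.32 and 1.78. EPHA4, a receptor for ephrins, read 8.04 and 7.95 against 6.75 and 6.54, with differences of 1.29 and 1.40. In each of these genes both high arrays are above both negative arrays.

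RLBP1, which carries retinal in the pigment epithelium and glia of the eye, differed by 1.45 and 1.51 in sorts 1 and 2. PSG11, a pregnancy-specific glycoprotein gene, differed by 1.16 and 1.96, and the transcription factor gene CREB5 by 1.15 and 1.38, although a second CREB5 probe gave 0.23 and 0.91. The kinase gene STK32A differed by 1.05 and 1.34, and MOB3B by 1.14 and 1.34. VAV3 differed by 1.02 and 1.54 and the translation elongation factor gene EEF1A2 by 1.02 and 1.69. For MOB3B, VAV3 and EEF1A2 the groups overlap, since the high array of sort 2 was below the negative array of sort 1. Outside the naming rule, and named here after their values were seen, were CEACAM1, an adhesion protein of the carcinoembryonic antigen family, at 1.21 and 2.35, the carnosine peptidase gene CNDP1 at 1.01 and 1.50 and the immunoglobulin family gene IGSF11 at 1.01 and 1.30. The second CEACAM1 probe gave 0.93 and 1.53. The remaining 2 probes have no gene symbol, ILMN_1776850 at 1.78 and 1.84 and ILMN_1787676 at 1.03 and 1.97. Paired by sort, the fit called 4 probes, the 3 above and ILMN_1776850 (adjusted p 0.0423).

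Some smaller differences were as even. RNF144B, a ubiquitin ligase, read 7.52 and 7.57 in the high cells against 6.54 and 6.49 in the negative cells, and differed by 0.99 and 1.08 in the sorts. PASD1, a cancer-testis antigen gene, read 6.18 and 5.84 against 4.88 and 4.85. HTN1, a salivary antimicrobial peptide gene, read 5.71 and 5.72 against 4.58 and 4.77 and was detected on 1 of the 2 negative arrays. ATP6V0D2, a subunit of the proton pump that acidifies lysosomes, differed by 0.91 and 1.08, MINAR1 by 0.90 and 0.96, and CTLA4, an inhibitory receptor best known from T cells, by 1.10 and 0.69. Each of these 6 genes was higher on both high arrays than on both negative arrays, and their limma adjusted p ran from 0.147 to 0.238.

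On the lower side, over 2-fold in each sort, were 18 probes, 0.145% of the members, both of CD36 included. Under median scaling in place of quantile normalization the counts were 25 higher and 18 lower. IL24, a cytokine gene first cloned from differentiating melanoma cells, read 7.77 and 7.50 in the high cells and 9.09 and 10.11 in the negative cells. Its second probe read 4.88 and 5.31 against 5.85 and 6.22, so both probes separate the groups. CAMK2N1, an inhibitor of the calcium-dependent kinase CaMKII, read 5.82 and 5.04 against 7.0 and 6.84. MXD4, a repressor that pairs with MAX, read 6.17 and 5.07 against 7.25 and 7.38, and TRIP6, an adaptor at focal adhesions, 5.91 and 5.74 against 7.19 and 8.49. The limma adjusted p of these 4 genes ran from 0.159 to 0.255.

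The others on this side varied in how alike their sorts were. IGFBP5, a carrier of insulin-like growth factors, was not detected on either high array and read 5.66 and 7.53 in the negative cells. It was at least 3.63-fold lower, against the lowest signal detected on each high array or its own signal where that was higher (limma adjusted p = 0.449). S100A4, a calcium-binding protein linked to cell motility, read 5.33 and 5.56 in the high cells and 6.86 and 9.24 in the negative cells, and its second probe gave -1.78 and -3.57 in the sorts. CEMIP, which degrades hyaluronan, read 6.96 and 6.77 against 8.17 and 11.36. F2R, a thrombin receptor, differed by -1.34 and -2.74, MYOF, a membrane repair protein, by -1.36 and -1.92, ENC1, an actin-binding protein, by -1.75 and -1.55, and PMEPA1, an inhibitor of TGF-beta signalling, by -1.19 and -1.88. In PMEPA1 the groups overlap, with 7.14 on the high array of sort 2 and 6.08 on the negative array of sort 1, and in ENC1 those arrays nearly meet at 7.32 and 7.35. The groups overlap also in THBS1, a matrix glycoprotein, which read 5.08 and 6.96 against 6.19 and 11.07. LPL, COL4A1 and COL4A2 complete this side and are described with their gene groups.

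Genes under 2-fold in at least 1 sort, but among those with the smallest p, were CDH19, SFRP1, OLFML2A and ADGRA2. CDH19, a cadherin of the Schwann cell lineage, read 6.41 and 6.52 against 7.27 and 7.34, nearly the same difference in each sort. SFRP1, a secreted Wnt antagonist, differed by -0.83 and -1.84, OLFML2A, an olfactomedin-domain protein gene, by -0.78 and -0.87, and ADGRA2, an adhesion receptor gene, by -0.96 and -0.63. Both high arrays were below both negative arrays in each of these 4 genes, and their limma adjusted p ran from 0.214 to 0.339.

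With 1 array per group in a sort, differences between sorts have no test and are described. In sort 1, 48 members (0.387%) were over 2-fold higher and 34 (0.274%) over 2-fold lower in the high cells. In sort 2 there were 126 (1.02%) and 253 (2.04%). The closest of all 6 pairs of WM115 arrays was the high and the negative array of sort 1, with 82 members over 2-fold apart, while the high arrays of the 2 sorts differed from each other in 168 and the negative arrays in 440. Across the 12412 members, which share their arrays and normalization, the difference in sort 1 and that in sort 2 had a Pearson correlation of 0.07 and a Spearman correlation of -0.06. Among member genes 26.4% were higher in both sorts and 22.4% lower in both.

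**Figure D2:**
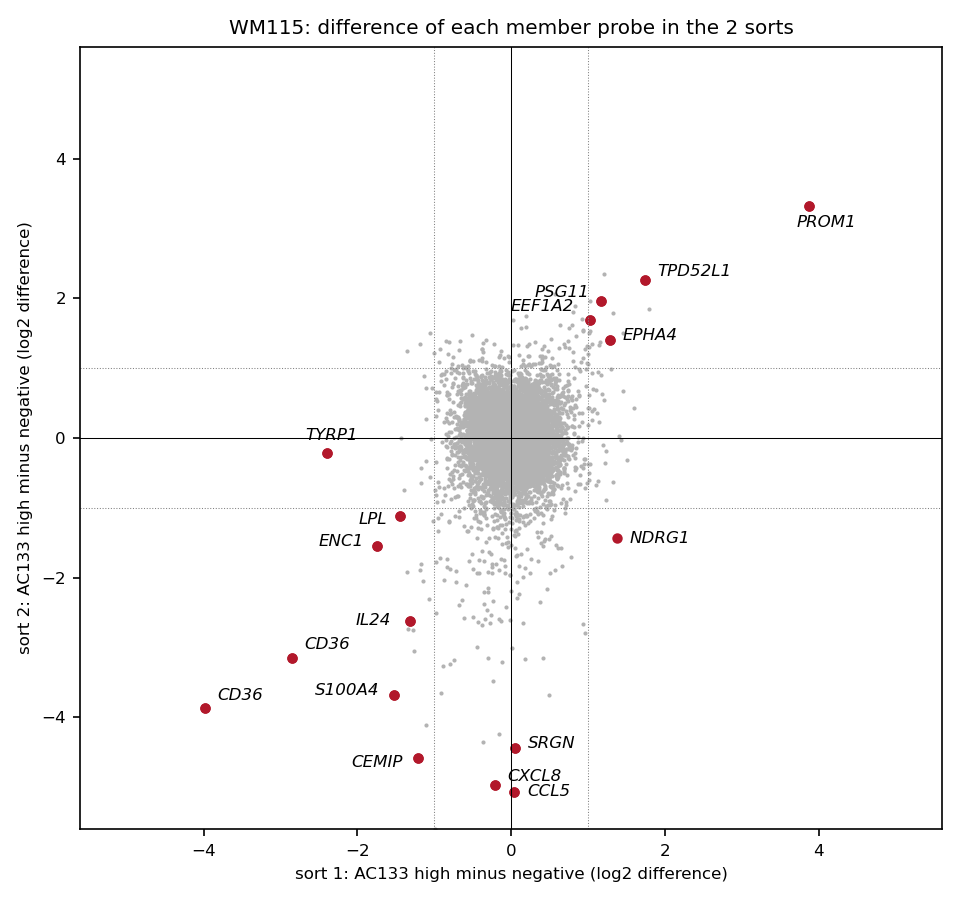
Log2 difference, AC133 high minus negative, of each of the 12412 member probes in sort 1 (horizontal axis) and in sort 2 (vertical axis). Dotted lines mark 2-fold, and red points carry gene names. PROM1 and CD36 stand at opposite corners, most members lie near 0 in both sorts, and a column of probes with CCL5, CXCL8 and SRGN extends downward at a sort 1 difference near 0.

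Few members moved over 2-fold in opposite directions. The members of this kind were named after their values were seen. NDRG1, a stress and hypoxia response gene, read 10.22 in the high cells of sort 1 and 7.19 in those of sort 2, with 8.84 and 8.62 in the negative cells. It was the member over 2-fold higher in sort 1 and over 2-fold lower in sort 2 (0.00806%), and its high arrays lie on either side of both negative arrays. The reverse held for 4 probes (0.0322%), of the nuclear import gene TNPO1, the 14-3-3 protein gene YWHAE, NOMO2 and ILMN_1729832, which has no symbol. TNPO1 read 6.41 and 7.49 in the high cells against 7.41 and 6.28 in the negative cells. YWHAE differed by -1.18 and 1.34 and NOMO2 by -1.35 and 1.25. The other probes of TNPO1 and NOMO2 gave smaller differences, with -0.13 and 0.36 for a second TNPO1 probe and -0.45 and 0.15 for a second NOMO2 probe.

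The AC133 negative array of sort 2 stood apart from the other 3. On it 139 members were over 2-fold above and 37 over 2-fold below each of them. The same counts on the remaining 3 arrays ran from 1 to 10 and from 1 to 11. Of the 379 members over 2-fold apart in sort 2, 176 (46.4%) were of this kind. CCL5, a T cell chemokine, read 10.98 on that array and 5.01 to 5.91 on the others, CXCL8, a neutrophil chemokine, 11.15 against 5.48 to 6.18, and the proteoglycan SRGN 11.37 against 6.93 to 6.99. HLA-B, VEGFC, THBS1, IRF1, CEMIP, CCN1 and CXCL1 were 3.15 to 4.27 log2 units above the nearest other array. SRGN, CCL5, IRF1 and CCN1 were slightly higher in the high cells in sort 1, at 0.05, 0.04, 0.49 and 0.18. The genes furthest below were EEF1A2, LRGUK, SEPTIN4, VAV3, CASP9, APOD, MOB3B, CKMT1A, APOE and PLA1A, at -1.70 to -1.31 log2 units from the nearest array. APOD and APOE are carriers of lipids, and EEF1A2, VAV3 and MOB3B are among the 16 probes higher in both sorts. The second probe of CASP9, a cell death protease, read 4.87 to 5.13 on the 4 arrays. Whether that array differs by the cells, the sort or the handling of the RNA was not tested.

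**Figure D3:**
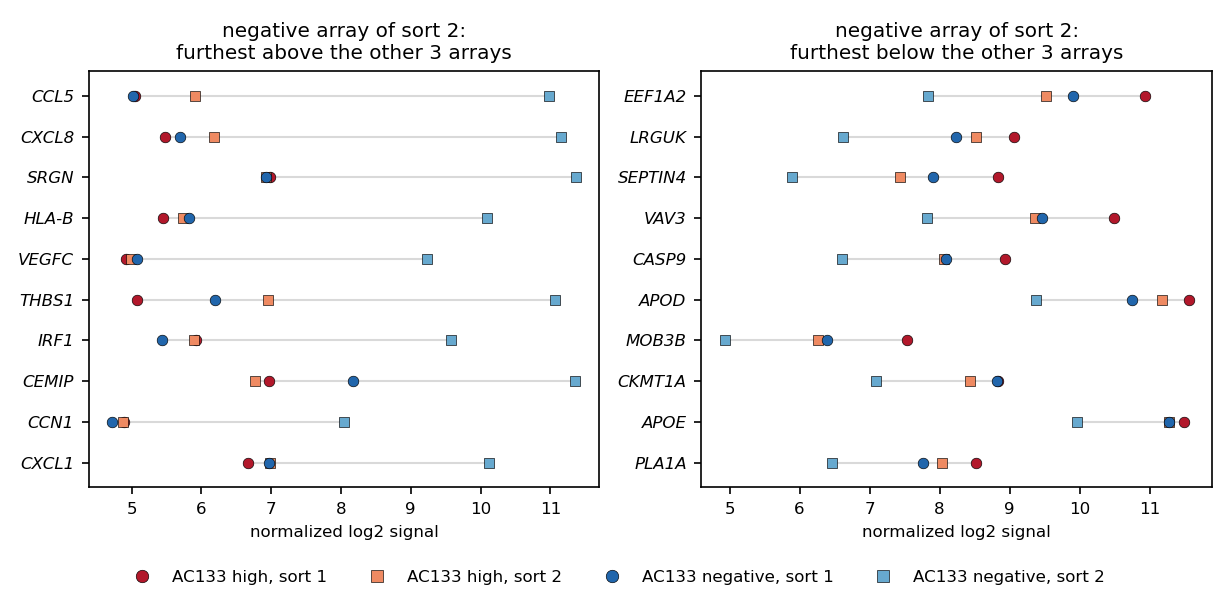
Normalized log2 signal (horizontal axis) on each WM115 array for the 10 genes furthest above (left) and the 10 furthest below (right) on the AC133 negative array of sort 2. Colours and shapes are as in the plot of signals by array. On the left the light blue squares stand alone at 8.05 to 11.37, and on the right the same array is lowest at 4.93 to 9.97.

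Because this array carries much of sort 2, the count of calls depends on which negative array is kept. Without the negative array of sort 1, so that the one left is assumed to vary like the other groups, 247 probes passed, 63 higher and 184 lower. Without the negative array of sort 2, 4 passed: PROM1, the CD36 pair and a probe of S100A4 (-1.77, limma adjusted p = 0.0395). Its other probe differed by -1.41 there.

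The title's question bears on cell cycle genes. Most genes of G2 and mitosis had higher values in the high cells in both sorts, by small amounts. Of 80 on the array 79 were detected, each on all 4 arrays. In the mean of both sorts 76 were higher and 3 lower, against 53.4% higher among all member genes, and 57 were higher in both sorts (72.2%, against 26.4%). Their median difference was 0.27, with 0.29 in sort 1 and 0.24 in sort 2, beside 0.02, 0.01 and 0.02 over all member genes. The median was 0.35 without the negative array of sort 2, where 74 of the 79 were higher. Without the negative array of sort 1 it was 0.21, and 61 were higher. Without the high arrays of sorts 1 and 2 it was 0.30 and 0.21. Both high arrays were above both negative arrays for 45 of the 79 and below them for 1 (15.6% and 13.1% among all member genes). No gene passed over all probes tested, and the range was -0.76 to 0.71.

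The members with the smallest p act from mitotic entry to division. CDK1, CCNA2, AURKA, AURKB, TOP2A, KIF14, PLK1 and LMNB1 were added to the naming rule's genes after their values were seen. HMMR, a spindle-binding protein, read 9.40 and 9.65 in the high cells and 8.87 and 8.93 in the negative cells. BORA, an activator of the Aurora A kinase, read 9.33 and 9.25 against 8.41 and 8.89, and TTK, the spindle checkpoint kinase, 9.38 and 9.41 against 8.58 and 8.99. All 3 separate the groups, with differences of 0.61 to 0.64 (limma adjusted p 0.699 to 0.752). CENPA, the histone of centromeres, differed by 1.05 in sort 1 and 0.26 in sort 2, and KIF14, a motor of cytokinesis, by 0.27 and 0.77. CDK1, the kinase that drives entry into mitosis, differed by 0.46, its partner CCNA2 by 0.36 and AURKA, AURKB and TOP2A by 0.43, 0.44 and 0.41. PLK1 went one way in sort 1 (1.20) and the other in sort 2 (-0.10). LMNB1, a nuclear lamina gene, had the lowest value of the list, at -0.05 and -1.48.

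Many promoters of this class are known to hold a cell cycle homology region, with the letters TTTGAA as its common form, bound by the MuvB complexes, and CCAAT boxes bound by NF-Y. Promoters of 300 bases, 250 before to 50 after the start, were taken from RefSeq (build GRCh38.p14) for 66 of the 79 genes, and TTTGAA and CCAAT were searched on both strands. The promoters of HMMR (chr5:163460382-163460681, plus strand), BORA (chr13:72727673-72727972, plus strand), CENPA (chr2:26785806-26786105, plus strand) and KIF14 (chr1:200620702-200621001, minus strand) are shown because these genes have small p within the list and hold both motifs. Capitals mark TTTGAA or TTCAAA, its reverse, and CCAAT or ATTGG, its reverse. In HMMR a CCAAT overlaps an ATTGG, and adjoining copies run together.
HMMR: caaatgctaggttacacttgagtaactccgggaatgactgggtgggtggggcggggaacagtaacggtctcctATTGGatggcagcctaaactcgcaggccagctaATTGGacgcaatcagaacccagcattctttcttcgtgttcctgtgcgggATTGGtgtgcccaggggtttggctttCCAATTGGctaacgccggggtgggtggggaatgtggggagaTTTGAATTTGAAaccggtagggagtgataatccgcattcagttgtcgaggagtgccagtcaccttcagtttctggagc
BORA: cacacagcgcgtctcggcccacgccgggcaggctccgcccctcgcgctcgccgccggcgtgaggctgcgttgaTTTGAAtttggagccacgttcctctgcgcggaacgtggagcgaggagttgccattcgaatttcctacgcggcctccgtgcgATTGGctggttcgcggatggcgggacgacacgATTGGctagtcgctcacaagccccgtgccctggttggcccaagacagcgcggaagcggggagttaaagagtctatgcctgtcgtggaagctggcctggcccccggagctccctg
CENPA: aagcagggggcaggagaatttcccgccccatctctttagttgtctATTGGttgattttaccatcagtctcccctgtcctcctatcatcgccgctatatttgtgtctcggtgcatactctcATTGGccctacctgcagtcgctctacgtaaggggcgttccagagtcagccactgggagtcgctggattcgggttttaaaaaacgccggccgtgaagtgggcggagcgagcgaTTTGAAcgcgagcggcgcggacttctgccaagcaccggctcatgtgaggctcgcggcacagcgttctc
KIF14: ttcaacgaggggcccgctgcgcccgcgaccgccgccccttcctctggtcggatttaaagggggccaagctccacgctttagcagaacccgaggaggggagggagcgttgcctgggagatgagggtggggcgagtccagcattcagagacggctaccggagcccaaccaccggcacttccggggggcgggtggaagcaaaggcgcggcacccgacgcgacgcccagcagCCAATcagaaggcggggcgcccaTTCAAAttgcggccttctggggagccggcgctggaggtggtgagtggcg
Counting over lists, 71.2% of the 66 promoters held TTTGAA, 71.2% held CCAAT and 56.1% held both. Among the promoters of 8459 member genes these shares were 9.91%, 37.7% and 4.18%, and among all 27305 promoters held by RefSeq's list they were 15.4%, 35.7% and 6.08%. A match is a description of letters and does not show binding.

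The letters were then set beside the differences. The 37 genes of the list with both motifs had a median difference of 0.28, 0.27 in sort 1 and 0.26 in sort 2, and 29 were higher in both sorts. The 29 without both had a median of 0.22, 0.30 and 0.18 in the sorts, and 17 were higher in both. Outside the list, 317 member genes with both motifs had a median of 0.05, and 32.2% were higher in both sorts, against 0.01 and 26.5% for the 8076 without. These differences between sets were not tested.

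Of the genes of S phase and DNA replication all 62 on the array were detected, 8 were higher and 25 lower in both sorts (22.4% lower among all member genes), and the median was -0.05, with -0.16 in sort 1 and 0.03 in sort 2. UNG, a repair glycosylase of S phase, read 9.69 and 9.97 in the high cells and 10.33 and 10.36 in the negative cells. Its other 2 probes gave -0.40 and -0.45 in sort 1 and 0.02 and 0.28 in sort 2. UHRF1, which maintains DNA methylation, differed by -0.80 and -0.51, POLD1, a DNA polymerase subunit, by -0.72 and -0.13, and MCM6, of the replicative helicase, by -0.14 and -0.65. The cyclin E genes CCNE1 and CCNE2, looked up after their values were seen, differed by -0.41 and -0.46. In 54 of these genes with a promoter entry TTTGAA was found in 5.56% and CCAAT in 57.4%.

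CDKN1A, the CDK inhibitor p21, read 9.66 and 9.94 in the high cells and 10.31 and 10.64 in the negative cells, -0.66 and -0.70 in the sorts, although its second probe, not detected on the high arrays, gave -0.37 and 0.06. CDKN2B and CDKN2A, inhibitors of CDK4 and CDK6, differed by 0.55 and 0.38. Over the 20 detected genes of CDK inhibitors and quiescence 6 were higher and 6 lower in both sorts, with a median of 0.09.

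**Figure D4:**
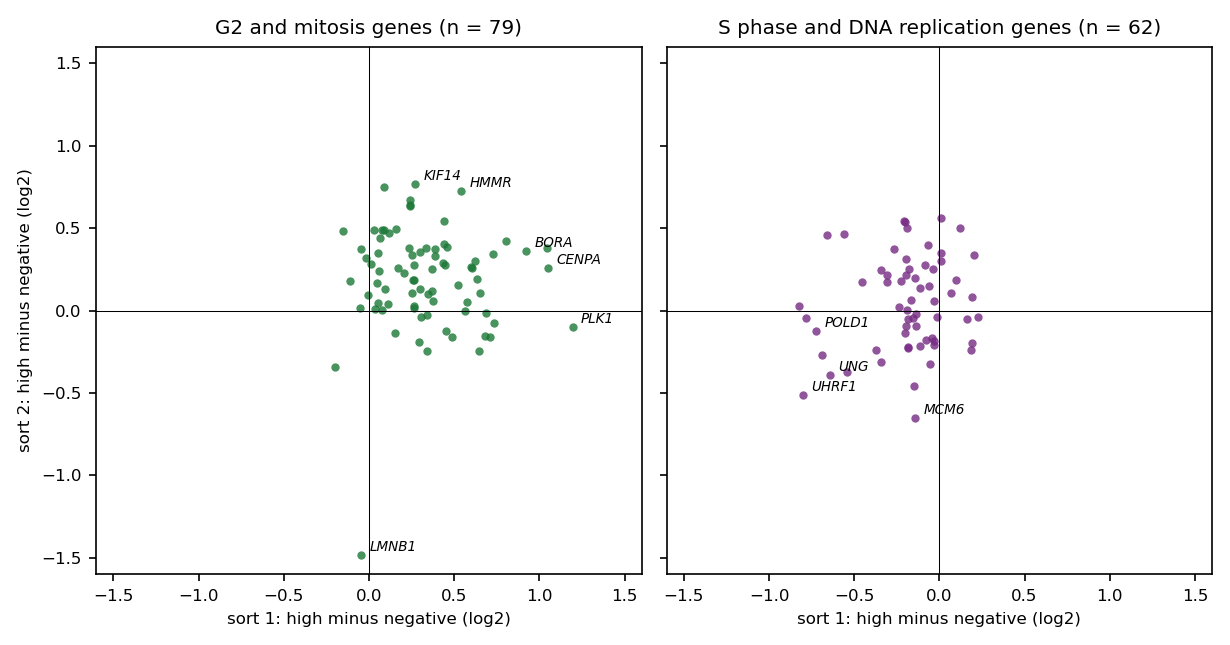
Log2 difference, AC133 high minus negative, in sort 1 (horizontal axis) and sort 2 (vertical axis) for the 79 detected genes of G2 and mitosis (left) and the 62 of S phase and DNA replication (right), 1 point per gene. On the left 57 points lie where both sorts are above 0, and LMNB1 lies alone at -1.48 in sort 2. On the right 8 points lie there and 25 where both sorts are below 0.

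Most detected matrix and mesenchymal genes had lower values in the high cells in both sorts, more so in sort 2. Of 42 on the array 28 were detected, 22 of them lower in both sorts (78.6%, against 22.4%) and 1 higher. The median was -0.57, -0.27 in sort 1, -0.77 in sort 2 and -0.31 without the negative array of sort 2. Of the 28, 3 (COL4A2, COL6A2 and FN1) met the detection rule through the negative cells alone, and 1 of the 2 high arrays detected each. FN1 differed by -0.51 and 0.01 in the sorts. Among the 25 detected on all 4 arrays 20 were lower in both sorts, with a median of -0.50. On 9 of the 28 the negative array of sort 2 was over 2-fold above each other array, against 1.25% of all member genes.

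ACTA2, smooth muscle actin, read 7.0 and 6.78 in the high cells and 7.99 and 8.55 in the negative cells. COL4A1, a basement membrane collagen, read 5.57 and 5.89 against 6.72 and 7.93, and its partner COL4A2, detected on 1 of the 2 high arrays, read 4.57 and 5.40 against 5.58 and 6.60. The background signal limits how low COL4A2 can read, so its difference has no exact size. VCAN, the proteoglycan versican, read 6.29 and 5.95 against 6.78 and 7.09. In each the high arrays are the lowest, and the negative array of sort 2 is the highest of the 4. Further genes of the list were named after their values were seen. CDH2, N-cadherin, differed by -0.80 and -1.88, the laminin gene LAMB1 by -0.46 and -1.10 and COL6A1 by -0.89 and -3.27. Of its transcription factors, ZEB2 differed by -0.33 and -0.66, SNAI2 by -0.68 and -0.19 and TWIST1 by -0.29 and -0.31, while SNAI1, the 1 detected gene of the list higher in both sorts, differed by 0.05 and 0.32. TAGLN, an actin-binding protein, read 4.78 on the high and 4.78 on the negative array of sort 1, with a difference of -2.19 in sort 2. TGFBI, a matrix protein, differed by 0.41 and -3.15. Vimentin, VIM, differed by -0.08 and -0.36. None of the list passed over all genes.

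Integrins are receptors for the matrix. Of 20 integrin genes 11 were detected, 6 lower and 1 higher in both sorts, with a median of -0.39, and -0.07 without the negative array of sort 2. ITGA5, of the fibronectin receptor, differed by -0.61 and -2.58, ITGB5 by -0.54 and -0.60 and ITGB8 by -0.37 and -0.40. Among 25 detected proteases and protease inhibitors 4 were higher and 8 lower in both sorts. MMP1, interstitial collagenase, was not detected on the high arrays, read 5.17 and 7.74 in the negative cells and was at least 3.30-fold lower, and ADAMTS1 differed by -0.54 and -0.80. Besides CST2, the related cystatin gene CST1, named after its values were seen, differed by 0.69 and 1.35, while CST7, an inhibitor of lysosomal proteases in immune cells, differed by -0.27 and -1.67.

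Genes of the melanocyte lineage differed mainly in sort 2. Of the 27 detected 12 were higher and 4 lower in both sorts, with a median of 0.25 that was 0.04 in sort 1, 0.43 in sort 2 and -0.01 without the negative array of sort 2. MLANA, a melanosome antigen, read 11.54 and 11.45 in the high cells and 11.14 and 10.27 in the negative cells. RAB27A, which moves melanosomes, read 9.34 and 9.49 against 9.15 and 7.90, but its second probe, detected on 1 of the 2 negative arrays, differed more evenly, by 0.88 and 0.99 (limma adjusted p = 0.214). SOX10 differed by -0.23 and 0.63 in the sorts, and MITF by 0.08 and 0.43, with -0.74 and 0.98 on its second probe. TYRP1, a pigment enzyme, ran against the list, most in sort 1: it read 8.18 on the negative array of that sort and 5.78 to 6.52 on the other 3. Its mean difference was -1.30, and -0.48 without the negative array of sort 1.

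The dedifferentiated melanoma state was read from 34 genes on the array. Of these 17 were detected, 10 lower and 1 higher in both sorts (22.4% and 26.4% among all member genes). Their median was -0.59, -0.16 in sort 1, -1.02 in sort 2 and -0.12 without the negative array of sort 2. Of the 17, 3 met the detection rule through the high cells alone, among them EGFR, the 1 higher in both sorts, and ROR1 through the negative cells alone. Among the 13 detected on all 4 arrays 9 were lower and 0 higher in both sorts, with a median of -0.63. POU3F2, the neural crest factor BRN2, was the most even, reading 7.77 and 7.85 in the high cells against 8.40 and 8.48 in the negative cells, with differences of -0.63 and -0.64 (limma adjusted p = 0.449). The AP-1 gene FOSL1 differed by -0.75 and -0.71. CCN2, a matricellular protein, differed by -0.54 and -1.77, the growth factor gene VEGFC by -0.16 and -4.24 and TPM1, a tropomyosin, by -0.28 and -2.65. NGFR, WNT5A and ZEB1, which mark this state in other melanoma lines, were each detected on at most 1 array. AXL and TCF4 of the same list were detected on 2 arrays, but not by the rule.

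**Figure D5:**
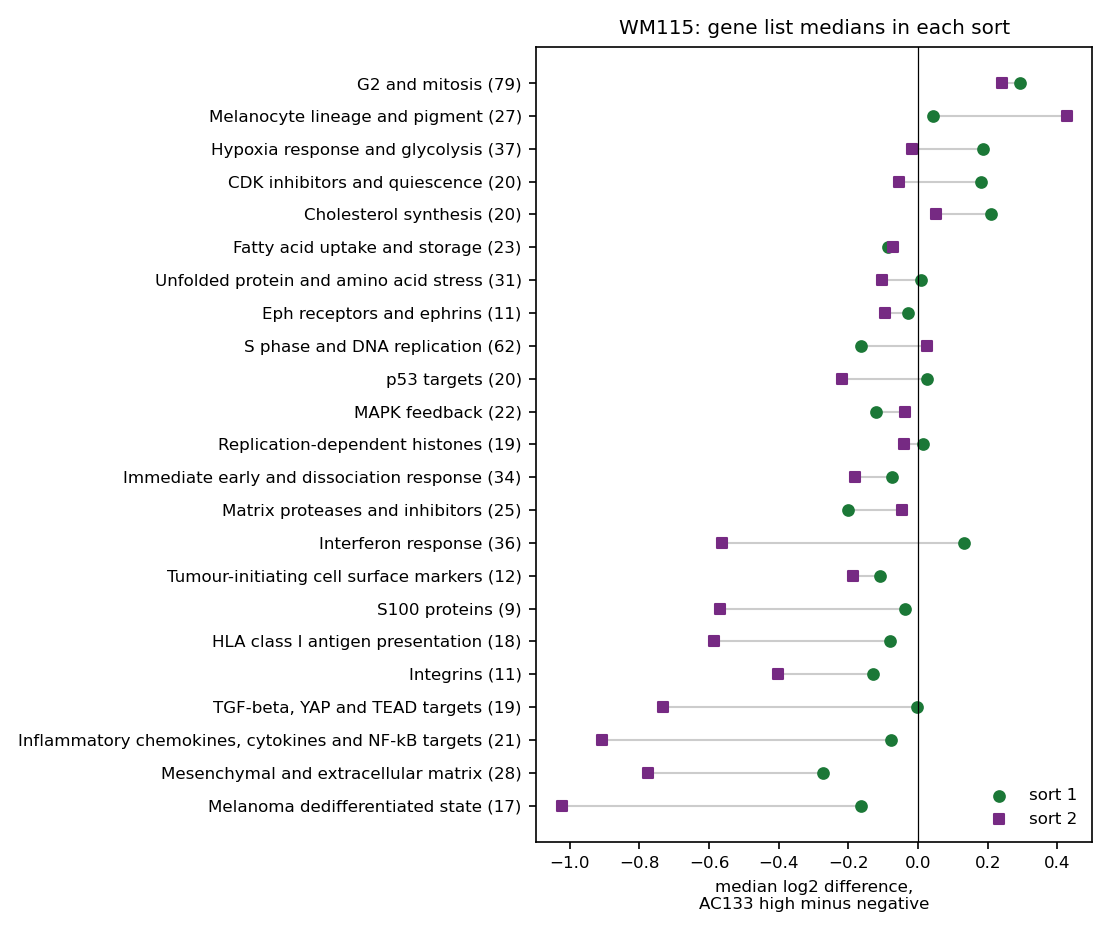
Median log2 difference, AC133 high minus negative (horizontal axis), over the detected genes of each list in sort 1 (green circles) and sort 2 (purple squares), with the number of genes in brackets. The marks lie close together for G2 and mitosis, at 0.29 and 0.24, and far apart for the dedifferentiated state, at -0.16 and -1.02, and the interferon response, at 0.13 and -0.56.

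Inflammatory genes had their lower values mostly in sort 2. Of 43 chemokines, cytokines and NF-kB targets on the array 21 were detected, 9 lower and 1 higher in both sorts (22.4% and 26.4% among all member genes). Among the 20 detected on all 4 arrays 9 were lower and 0 higher in both sorts. The median of the 21 was -0.50, -0.08 in sort 1, -0.91 in sort 2 and 0.05 without the negative array of sort 2. That array was over 2-fold above each other array on 7 of the 21. IL24 is described above. The sorts gave like sizes for TNFAIP6, a hyaluronan-binding protein induced by inflammation. It read 4.71 and 4.85 in the high cells and 5.41 and 5.67 in the negative cells. NFKB2, an NF-kB subunit, differed by -0.50 and -0.98, and CD70, a costimulatory ligand, by 0.00 and -3.01.

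Interferon response genes had opposite medians in the sorts. Of 46 on the array 36 were detected. Of these 28 were higher in the high cells in sort 1 and 7 in sort 2, where 50.8% and 53% of all detected genes were higher. The medians were 0.13 and -0.56, and the median over both was -0.21, or 0.29 without the negative array of sort 2. In both sorts 6 genes were higher and 7 lower. ISG20, an interferon-induced nuclease and 1 of those 6, read 11.11 and 10.78 against 10.13 and 9.46. Its groups do not overlap (difference 1.15, limma adjusted p = 0.362). BST2, which tethers virus at the cell surface, differed by 0.05 and -1.58. Of 18 detected genes of class I antigen presentation 10 were lower and 2 higher in both sorts, with a median of -0.32, and -0.08 without that array. TAPBP, a peptide loading chaperone, differed by -0.25 and -0.92, B2M, the light chain, by -0.13 and -1.24, TAP2, a peptide transporter, by -0.43 and -0.37 and HLA-F by -0.25 and -0.67. Targets of TGF-beta, YAP and TEAD, 19 detected, had medians of -0.00 and -0.73 in the sorts, and 0.11 without that array.

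Genes that respond early to stimuli or to dissociation of tissue were read because the cells were lifted with trypsin. Of 34 detected 16 were lower and 4 higher in both sorts, with a median of -0.16, -0.08 in sort 1, -0.18 in sort 2 and -0.21 without the negative array of sort 2. NR4A2, a nuclear receptor of the early response, read 5.51 and 4.95 in the high cells and 6.42 and 6.04 in the negative cells. JUND differed by -0.37 and -0.66, KLF4 by -0.13 and -1.05 and ATF3, a stress factor, by -0.01 and -1.96. How these genes bear on the other lists was not tested.

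Markers of other skin cell types were read on the same arrays. Of 21 markers of keratinocytes and epithelium 3 were detected, KRT10, ELF3 and KRT18, with a summed level of 10.75 to 10.88 in the high cells and 10.60 to 10.87 in the negative cells, and KRT5, KRT14 and CDH1 were detected on 0 of the 4 arrays. Of 18 markers of fibroblasts and pericytes 6 were detected, with a summed level of 10.76 to 11.10 against 10.63 in sort 1 and 11.62 in sort 2, and COL1A2, PDGFRA and THY1 were detected on 0 of the 4 arrays. The 6 are ACTA2, TAGLN, CSPG4, MCAM, DCN and LUM, of which 0 were higher and 3 lower in both sorts (26.4% and 22.4% among all member genes). MCAM, DCN and LUM differed by 0.99, 0.59 and 0.83 in sort 1 and by -0.64, -0.46 and -0.75 in sort 2. ACTA2, TAGLN, DCN and LUM are also in the matrix list described above. Of the 28 detected genes of that list 22 were also highest on the negative array of sort 2. The part of such cells in the matrix result was not tested.

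Set against the same sort of Caco2, 9 probes differed between the lines (0.065% of those tested), 3 of them members here. CD36 was detected on no Caco2 array, and its difference in WM115 minus that in Caco2 was -3.03 and -4.01 on the 2 probes (limma adjusted p 0.00839 and 0.0128). VCAN gave -2.75 in this contrast (limma adjusted p = 0.0128), with -0.82 in WM115 and 1.93 in Caco2, where 2 of the 4 arrays detected it. Paired by sort the count was 4, the CD36 probes passed with adjusted p of 0.0327 and 0.0141, and VCAN did not (0.0698). Without the high array of sort 1 the count was 0 (818 probes with an unadjusted limma p under 0.05), without that of sort 2 it was 1, and without the negative arrays of sorts 1 and 2 it was 153 and 2. EPHA4 differed by 1.34 in WM115 and by 1.31 in Caco2, EEF1A2 by 1.36 and 1.54. The median over genes of G2 and mitosis was 0.07 in Caco2.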

How the data were processed

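RNA of sorted cells was hybridised to Illumina HumanRef-8 v2 BeadChips. Per the file headers, each deposited array file gives a signal intensity per probe, averaged over beads, with its standard error, the count of beads and a detection p-value, in steps of 1 in 708. The authors made them with BeadStudio 3 and, per the series' design text, also deposited a quantile-normalized intensity table. Whether they subtracted background is not given in the sources used here.

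From the signals, normexp background correction, with an offset of 16 and control levels inferred from the detection p-values, was followed by quantile normalization of all 8 arrays and log2 (limma 3.58.1, R 4.3.3). Of the probes listed, 19715 had 1 gene symbol, 2469 none and 0 several, and 19695 were updated through a current gene number. Probes detected on both arrays of any of the 4 groups were tested with limma in 1 fit of all 4 groups, with Benjamini-Hochberg adjustment and a threshold of 0.05. The fit was tested on simulated data.

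Members and gene lists were chosen with earlier results of these data known. Named were PROM1 and MELK, genes past the threshold, the 10 per direction with the smallest p and the 10 with the largest smaller within-sort difference, up to 4 members with the smallest p of each of the 27 lists, and the 10 furthest above and below on the negative array of sort 2. The probe of highest mean signal stood for a gene, and other probes are given where they disagree. The sort number in the labels pairs high and negative arrays, whose deviations correlated at 0.177 in WM115 and 0.281 in Caco2 over the 13844 probes. The alternatives changed background correction, normalization, filter, spread, pairing and test, or left out each WM115 array. Promoters came from RefSeq, build GRCh38.p14. Beads per probe and the number of arrays limit the precision.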

Additional observations from a re-analysis of the deposited data

Results flagged for a closer look

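A probe was singled out here because its AC133 difference differed between WM115 and Caco2 by the interaction test of the limma fit. For CD36 the WM115 difference minus the Caco2 difference was -3.03 on the better detected probe (limma adjusted p = 0.00839) and -4.01 on the other (limma adjusted p = 0.0128). In WM115 CD36 was lower in the high cells in both sorts, and in Caco2 it was detected on no array. For VCAN the value was -2.75 (limma adjusted p = 0.0128), with Caco2 means of 6.51 in the high and 4.58 in the negative cells. The groups of 2 arrays are too small for a search for single arrays that lie far from their group.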

How the results depend on the processing

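The 3 calls of the WM115 comparison numbered 2 to 4 under changes of background correction, scaling, filter and weights, and 4 with the sort number as a replicate block. They numbered 0 with the 4 WM115 arrays alone. The methods' t-test gave 499 probes unadjusted and 1 after Benjamini-Hochberg adjustment. Leaving out 1 array in turn gave 3 to 247. The line difference of 9 probes was 3 with an offset of 50, 4 without a filter, 2 over probes detected on all 4 arrays, 4 with the replicate block, and 0 to 153 leaving out 1 array in turn. The 34 probes over 2-fold in both sorts were 20 without background correction, 14 with an offset of 50 and 17 in the authors' table. The cause of these moves was not tested, except that the filters change which probes are tested and the offsets shrink differences of dim probes.

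Of 1809 values of named genes under an alternative, 1732 kept direction and side of the threshold, 4 no longer passed, 55 newly passed and 18 turned sign. Leaving out 1 array in turn, the value ran from -4.43 to 0.027 for SRGN, -5.35 to 0.14 for CXCL8, -2.22 to 0.029 for TAGLN, -3.17 to 0.17 for CCN1, -5.52 to 0.46 for CCL5, -3.70 to 0.47 for IRF1, -0.19 to 1.55 for CKMT1A, -0.011 to 0.48 for FCGR3A, -0.19 to 0.83 for LCP2 and -0.0078 to 0.33 for PPBP, turned in each without the negative array of sort 2. It ran from -1.22 to 0.018 for ASNS, -0.79 to 0.049 for HBG1, -0.027 to 0.61 for VWF, -0.040 to 0.20 for ELF3, -0.77 to 1.10 for MCAM and -0.15 to 0.16 for KRT18, turned without another array. Among list medians 313 of 351 values moved less than the standard deviation of the list's 2 within-sort medians. That yardstick is wide for lists whose sorts disagree. Of 27 lists 16 turned sign under at least 1 alternative, 9 of them without the negative array of sort 2. Without the high array of sort 1, hypoxia went from 0.11 to -0.09 and S phase from -0.05 to 0.08. Dim probes bound what can be said of genes near background, as for both CD36 probes in the high cells. With 2 arrays per group and all of 1 line, the spread between cultures is not known.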

Other observations

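Several further gene groups were read in the same way, and none of their members passed other than PROM1. Of 37 detected genes of the hypoxia response and glycolysis 14 were higher and 3 lower in both sorts (26.4% and 22.4% among all member genes), with a median of 0.11, 0.19 in sort 1 and -0.02 in sort 2. EGLN1, an oxygen-sensing hydroxylase, read 8.42 and 7.89 in the high cells and 7.44 and 6.91 in the negative cells, the same difference of 0.98 in both sorts. ENO2, a glycolytic enolase, differed by 1.12 and 0.37, and HK2, which starts glycolysis, by 0.84 and 0.45. In EGLN1, ENO2 and HK2 both high arrays are above both negative arrays. PLOD2, a collagen hydroxylase, differed by 0.00 and -1.07. Of 20 genes of cholesterol synthesis, all detected, 7 were higher and 2 lower in both sorts, with a median of 0.08. MVK, mevalonate kinase, differed by 0.37 and 0.47, ACAT2 by 0.27 and 0.40 and NSDHL by 0.36 and 0.22, while INSIG1, which restrains the pathway, differed by 0.15 and -1.13.

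Markers of tumour-initiating cells did not share one direction. Most are surface proteins, but KDM5B, ALDH1A1 and ALDH1A3 are enzymes inside the cell. Of 12 detected 3 were higher and 6 lower in both sorts, with a median of -0.25, or 0.06 without the negative array of sort 2. CD44, the hyaluronan receptor, read 11.34 and 11.23 in the high cells and 11.82 and 12.12 in the negative cells, endoglin, ENG, 7.17 and 7.50 against 7.95 and 7.75, and CD47, a signal against phagocytosis, differed by -0.23 and -0.62. In CD44, ENG and CD47 the high arrays are the lower ones, opposite to PROM1. The 3 markers higher in both sorts were PROM1 itself, CD9 at 0.47 and 0.11 without overlap of the groups, and KDM5B at 0.41 and 0.01. Of 11 detected Eph receptors and ephrins 3 were higher and 4 lower in both sorts. Besides EPHA4, EPHB4 read 6.16 and 5.97 against 6.64 and 6.68, EFNB1, an ephrin not detected on the high arrays, was at least 1.49-fold lower, and EFNA4 differed by 0.08 and 0.43. Of 9 detected S100 genes 5 were lower and 1 higher in both sorts. S100A3 differed by -0.92 and -3.65, and S100A13 by -0.16 and -0.58 on its probe of highest signal. Its other 3 probes gave 0.03, -0.03 and -0.45 in sort 1 and -0.41, 0.52 and 0.05 in sort 2. S100B, a melanocyte marker, differed by -0.08 and -0.59. It read 4.81 and 4.68 in the high cells, near the lowest signals detected, and 1 of the 2 high arrays detected it.

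Targets of p53, 20 detected, had 4 higher and 6 lower in both sorts and a median of -0.09. CDKN1A and XPC, a DNA damage sensor, were lower at -0.68 and -0.37, and SESN1 was 0.32 in the other direction. Feedback genes of the MAPK pathway, 22 detected, had 5 higher and 10 lower and a median of -0.10. Replication-dependent histones, 19 detected, had 4 higher and 6 lower and a median of -0.11, with H2AC6 at -0.09 and -1.15. Probes of such histone genes can share sequence, so their values are uncertain. Genes of the unfolded protein and amino acid stress response, 31 detected, had 4 higher and 9 lower and a median of -0.04, with asparagine synthetase, ASNS, at -0.10 and -1.10. Of the interferon genes not yet given, IFITM2, which blocks virus entry, differed by -0.30 and -2.14, and MX2 by 0.32 and 0.37.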
